A study of Mus musculus with 8 samples.

Results

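The tumour necrosis factor (TNF) ligand and receptor superfamilies were followed in mouse liver lacking the RNA-binding proteins ZFP36L1 and ZFP36L2. Members were all rows of the deposited gene table whose symbol begins with Tnfrsf or Tnfsf and a digit, together with Tnf, Lta, Ltb, Ltbr, Fas, Fasl, Ngfr, Cd27, Cd40, Cd40lg, Cd70, Eda2r and Relt. This gave 43 of 22052 genes, namely 16 ligands, 26 receptors and Tnfsf13os, a noncoding RNA antisense to Tnfsf13, while Cd70 and Tnfrsf17 were not analysed here. Livers came from 8 male C57BL/6 mice aged 8 weeks, all given corn oil into the peritoneum, and liver RNA was sequenced from each. In 4 mice both genes carried floxed alleles and no recombinase was present (Zfp36l1fl/fl/Zfp36l2fl/fl, controls). The other 4 carried the same alleles and Alb-Cre, whose recombinase is made from the albumin promoter, that is mainly in hepatocytes (Zfp36l1fl/fl/Zfp36l2fl/fl/Alb-Cre, dKO). The controls have no Cre, so the presence of the recombinase and the loss of the 2 genes cannot be told apart.

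TNF superfamily ligands are mostly trimeric proteins made on the cell surface, many of which are also shed, and each engages 1 or a few receptors of the partner family. Receptors with a death domain recruit FADD or TRADD and can start caspase-dependent death, whereas most others bind TRAF adaptors and switch on NF-kB and stress kinases. Decoy receptors bind ligand without passing on the full signal. In liver, TNF and FAS ligand are known as triggers of hepatocyte death, and TNF and TWEAK (Tnfsf12) are known for their part in regeneration. ZFP36 proteins recognise AU-rich stretches near the 3' end of an mRNA, in its untranslated region (UTR), and hasten its decay; the Tnf mRNA is the classical target of ZFP36 itself.

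That element was therefore looked for in the members first. The heptamer TATTTAT, the core of the binding site, was searched on the transcript strand in all annotated 3' UTRs of each gene (GENCODE M21, GRCm38). It was present in 21 of 41 tested members with a 3' UTR, or 51.2%, against 30.1% of 15424 tested genes, with median 3' UTR lengths of 1217 and 1166 bases. Sites of 6 members that were higher in dKO livers are printed to show how they differ in context, 5′ to 3′, with 1 heptamer in capitals.
Tnf: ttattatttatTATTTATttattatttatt
Tnfrsf10b: taattttttatTATTTATtttcttcattca
Relt: atcccatttctTATTTATtgaaacctgctg
Tnfsf9: actggacttggTATTTATtctgagcatagc
Tnfrsf11a: ccccacccccaTATTTATtattcacttgct
Tnfrsf12a: aaggggggtgaTATTTATtgtggggataat
They lie at chr17:35199681-35199710 (minus strand), chr14:69783498-69783527 (plus), chr7:100846229-100846258 (minus), chr17:57107604-57107633 (plus), chr1:105845093-105845122 (plus) and chr17:23675492-23675521 (minus) on GRCm38, the assembly that mm10 names. The Tnf window also holds copies of the heptamer in lower case, and the Tnf 3' UTR holds 8 in all, counting overlapping ones, more than any other member. Tnfrsf10b, which encodes the mouse death receptor for TRAIL, has 3, Relt and Tnfsf9 have 2 each, and Tnfrsf11a and Tnfrsf12a have 1 each. The longer form TTATTTATT, which contains the heptamer, was found in 6 members, Tnf (5 copies), Tnfrsf10b, Relt, Tnfsf13b, Tnfrsf22 and Lta, and in 8.25% of tested genes with a 3' UTR. A match of letters is a description and does not show that the site is bound.

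Each library had between 15253827 and 19299556 gene reads, of which mitochondrial genes took 4.06% to 4.74% in controls and 3.09% to 3.7% in dKO livers. Levels are normalised read counts, that is reads divided by 1 size factor per library, and values listed for a gene run from control 1 to 4 and from dKO 1 to 4, with means given ± SD (n = 4 livers). Changes are dKO minus control on the log2(value + 0.5) scale, where the added 0.5 draws low values together. Because logs of single livers are averaged, such a change can lie above or below the log2 of the ratio of the group means. Fewer than 3 reads in a library, or 2.55 to 3.43 normalised read counts, was taken as the detection floor, and such floors and the counting intervals cover counting error only. Both targeted genes had lower transcript levels in dKO livers. Zfp36l1 stood at 1370.2 ± 194 (control) and 226 ± 27.6 (dKO) (change of -2.60 log2 units, adjusted p by limma = 1.7e-08) and Zfp36l2 at 1584 ± 393 (control) and 796 ± 94.4 (dKO) (change of -0.96 log2 units, adjusted p by limma = 0.000689). For each, the 2-sided exact permutation test gave p = 0.0286, the smallest that 4 against 4 livers allow. Zfp36 stood at 2837 ± 448 (control) and 2371 ± 352 (dKO) (limma adjusted p = 0.123, and 0.0478 without control 3 or 0.0496 without dKO 2). Of 9 hepatocyte markers 2 rose and 4 fell, and their summed level was 1217102 to 1343957 in controls and 1215814 to 1314050.3 in dKO livers. Most of these sums came from Alb, with means of 773160 in controls and 824048 in dKO livers. The markers that fell were Serpina1c (means of 14704 and 4034), Ttr (84340 and 46312), Apoa2 (92695 and 54981) and Hnf4a (14613 and 10952). Fgb (91873 and 134750) and Tat (31446 and 40584) rose. Counts of markers, here and below, stand beside 21.2% higher and 17% lower over all tested genes. Control 4 lay nearer to the dKO livers than the other controls did on the first principal component of all genes, at -43.3 against -76.5 to -67.7 for controls 1 to 3 and 57.5 to 68.9 for dKO. It was the highest control in 11 of the 20 members called below and in 28.2% of all tested genes, so results that rest on it are given with and without it.

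The question put to the family was which ligands and receptors differ between dKO and control livers. Of 42 tested members 20 were higher in dKO livers, 0 were lower and 22 were called neither way (limma, Benjamini-Hochberg adjusted p under 0.05 over all 20055 tested genes). Over all tested genes 21.2% were higher and 17% lower. The members' median log2 change was 0.95, beside 0.03 for all tested genes. Without control 4, 22 members were higher and 0 lower. With quantile normalization, which moved the balance of all genes to 18.1% higher and 21.5% lower, 16 members were higher and 3 lower (Tnfsf15, Tnfrsf18 and Tnfrsf19). In the 28 members with a mean of 10 or more, 18 were higher, beside 26.3% of all genes at that level (27.2% where only those genes were tested). A rise of 2-fold or more was seen in 15 members and a fall of that size in 0, beside 12.8% and 3.97% of all tested genes. At an unadjusted p under 0.05, 1 member was lower (Tnfsf15), which edgeR also called lower. DESeq2 called no member lower but gave no adjusted p for Tnfsf15.

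**Figure D1:**
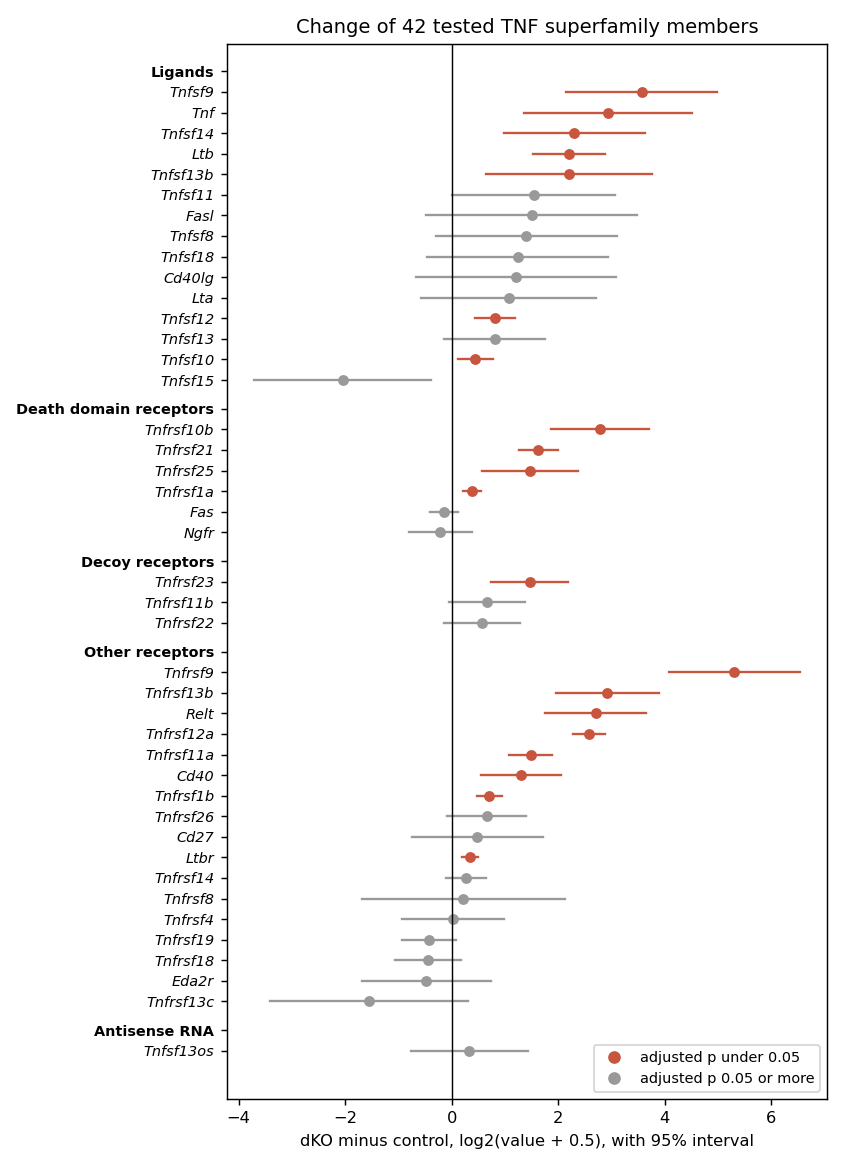
Change of the 42 tested members between dKO and control livers, on the log2(value + 0.5) scale, with limma's 95% interval (4 livers per group), grouped by role. The 20 members in red passed the threshold and all lie above 0; Tnfrsf9 has the largest value, 5.31, and the intervals of Tnfsf15 and Tnfsf9 show the spread of members with few reads.

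All 7 ligands and 13 receptors that were called rose, and 8 ligands and 13 receptors were called neither way. Every call but that of Tnfsf13b had all 4 dKO values above all 4 control values. Tnfrsf26 was also separated in that way without passing the threshold, which brings the members with all dKO values higher to 20 of 42, beside 19.4% of tested genes. Tnfrsf18 had all dKO values lower, beside 16.9% of tested genes. Low counts set a limit, since Lta and Tnfsf4 had under 3 reads in all 8 livers and a further 14 members in at least 1 liver. Tnfsf4, the ligand of OX40, had 0 reads in controls and at most 1 in a dKO liver and was not tested. Whole liver was sequenced, so more cells that hold a transcript and more of it in each cell cannot be told apart.

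TNF itself is a cytokine made mainly by macrophages and lymphocytes. Tnf (chromosome 17, 35199381 to 35202007, minus strand) held 1.03, 3.08, 1.05 and 21.7 across the controls against 25.1, 27.7, 34.9 and 25.1 across the dKO livers. Controls 1 to 3 were at or near the detection floor, while control 4 lay just under the dKO livers. Tnf rose in dKO livers (change of 2.94 log2 units, SE 0.73, adjusted p by limma = 0.00641), and by 3.80 without control 4 (adjusted p = 0.000108). The ratio of its group means, which control 4 weighs on more, was 4.2. Its neighbour Lta, which encodes lymphotoxin alpha, had at most 2 reads in any liver, with values of 0, 1.03, 0 and 0 across the controls against 0, 1.85, 0.852 and 1.86 across the dKO livers. The main signalling receptor of TNF, Tnfrsf1a, which carries a death domain, was abundant, at 1800.1, 1738, 1835 and 2079 across the controls against 2309.9, 2335, 2432 and 2603 across the dKO livers. All dKO values lay above all control values, and the rise was small (change of 0.38 log2 units, SE 0.08, adjusted p by limma = 0.00174). Tnfrsf1b, the second TNF receptor, which lacks a death domain and is prominent on leukocytes, stood at 1040.2, 1019.8, 757 and 878 across the controls against 1456, 1324, 1693 and 1534 across the dKO livers. It rose by more than Tnfrsf1a, although the difference between them was not tested (change of 0.71 log2 units, SE 0.11, adjusted p by limma = 0.000264).

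**Figure D2:**
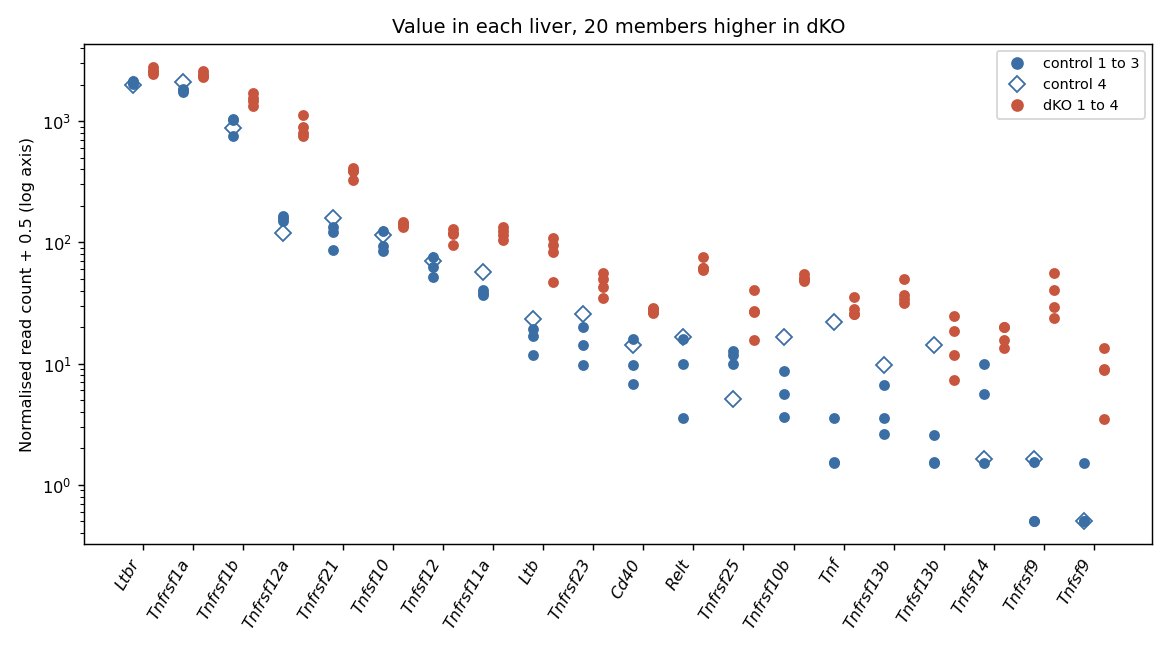
Normalised read count plus 0.5 in each liver (log axis) for the 20 members higher in dKO livers, ordered by control mean; filled blue points are controls 1 to 3, open diamonds control 4 and red points dKO 1 to 4. Red points lie above all blue ones in every column except Tnfsf13b, and control 4 lies close to the dKO livers for Tnf (21.7 against 25.1 in the lowest dKO liver).

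Markers of macrophages and monocytes, which are sources of TNF and carry Tnfrsf1b, were also mostly higher in dKO livers than in controls. Of 12 such markers 11 rose and 0 fell. Their summed level was 3017 to 7936 in controls and 10937 to 16309.6 in dKO livers, with control 4 the highest control. Lyz2 alone was at 4457 in control 4, against 929 to 1230 in controls 1 to 3. Csf1r, Adgre1 and Ptprc had their highest control value in another liver, while the other markers had it in control 4. Tnfrsf1b stood at 878 in control 4, below controls 1 and 2 at 1040.2 and 1019.8. Neutrophil markers, of which all 8 rose, summed to 75 to 347 in controls and 695 to 976 in dKO livers, again with control 4 at the top of the controls. Ltf, Mpo and Ly6g, 3 of these neutrophil markers, had 0 reads in all controls and 199, 40 and 8 reads in the dKO livers together. Ly6g was under 3 reads in 7 of the 8 livers, and its call held in 8 of the 15 other settings that tested it. Of 5 Kupffer cell markers 2 rose, with sums of 4519.7 to 5639.7 in controls and 5477 to 10494 in dKO livers. The part of these cells in the levels of Tnf, Tnfrsf1b and the other members was not tested.

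**Figure D3:**
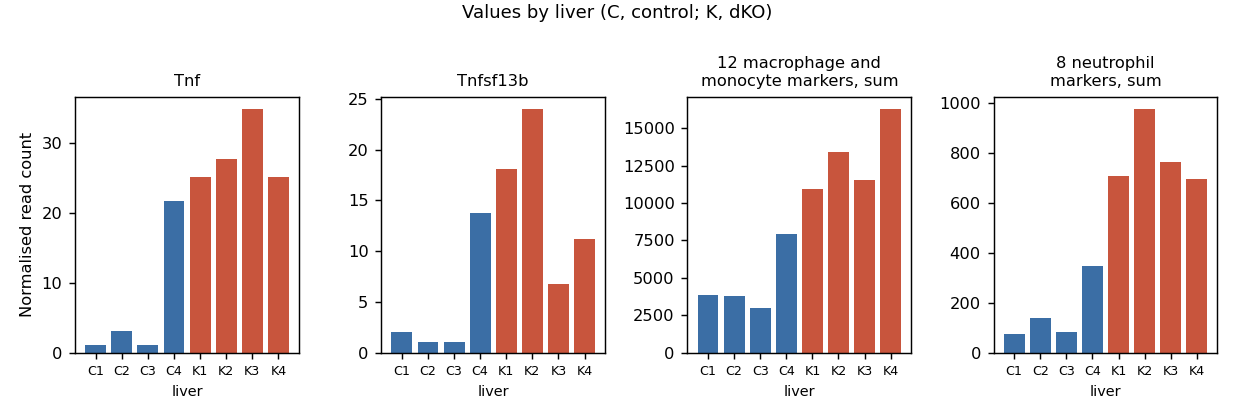
Normalised read counts of Tnf and Tnfsf13b and summed normalised read counts of 12 macrophage and monocyte markers and 8 neutrophil markers in each liver (C1 to C4, controls; K1 to K4, dKO; bars start at 0). Control 4 is the highest control in all 4 panels, at 21.7 for Tnf and 7936 for the macrophage sum, and lies within the range of dKO livers only for Tnfsf13b.

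The lymphotoxin and LIGHT ligands act through shared receptors. Ltb, the membrane-anchoring lymphotoxin subunit, held 11.3, 16.4, 18.9 and 22.9 across the controls against 46.3, 95.2, 83.5 and 109 across the dKO livers and rose (change of 2.21 log2 units, SE 0.31, adjusted p by limma = 0.000134). The lowest dKO liver, dKO 1, had about 2 times the level of the highest control. Its receptor Ltbr, which is expressed on hepatocytes and stromal cells and drives noncanonical NF-kB, was the member with the highest level per length. Ltbr stood at 2147, 2011, 2104 and 1968 across the controls against 2805, 2599, 2436 and 2589 across the dKO livers, a small rise with no overlap (change of 0.34 log2 units, SE 0.07, adjusted p by limma = 0.00183). Tnfsf14 encodes LIGHT, a ligand of LTBR and of HVEM. It held 1.03, 5.13, 9.47 and 1.14 across the controls against 15.1, 12.9, 19.6 and 19.6 across the dKO livers, so that control 3 came nearest to the dKO livers (change of 2.31 log2 units, SE 0.61, adjusted p by limma = 0.00959). Tnfrsf14, which encodes HVEM, stood at 97.7 ± 9.91 (control) and 119 ± 22.7 (dKO) with overlap (change of 0.27 log2 units, adjusted p by limma = 0.246), and its adjusted p was 0.0495 without dKO 3, the lowest dKO liver.

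TWEAK and its receptor FN14, a pair known from tissue repair and progenitor cell growth, both rose. Tnfrsf12a, which encodes FN14 (chromosome 17, 23675445 to 23677468, minus strand), held 158, 164, 148 and 118 across the controls against 745, 1114, 797 and 893 across the dKO livers. The lowest dKO liver was at more than 4 times the highest control, and controls varied little. This was the member with the smallest adjusted p (change of 2.58 log2 units, SE 0.14, adjusted p by limma = 6.3e-08, 95% interval 2.28 to 2.89), and control 4 was here the lowest of the controls. Markers of cholangiocytes, the bile duct cells, in which FN14 is also known, all rose (6 of 6), with summed levels of 636 to 1523 in controls and 7811 to 12155 in dKO livers. Most of these sums came from 1 marker, Spp1, with means of 705 in controls and 9498 in dKO livers. The other markers had means of 2.09 to 108 in controls and 49.7 to 202 in dKO livers. Control 4 had the highest of the control sums, 1523, and the part of cholangiocytes in the level of Tnfrsf12a was not tested. Its ligand Tnfsf12 held 51.3, 62.6, 75.7 and 69.8 across the controls against 119.7, 94.3, 128 and 116 across the dKO livers and rose less (change of 0.82 log2 units, SE 0.17, adjusted p by limma = 0.0024). Tnfsf12 shares 48.3% of its exonic bases with Tnfsfm13, an annotated read-through gene of Tnfsf12 and Tnfsf13, which also rose (from 9.79 ± 1.37 to 21.5 ± 3.48, change of 1.09 log2 units, adjusted p by limma = 0.0169, or 0.152 with quantile normalization). No source used here says how reads of both genes were counted.

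Receptors that carry death domains did not move as 1 group. Fas, which is known to mediate hepatocyte apoptosis, held 319, 331, 264 and 343 across the controls against 262, 273, 263 and 345 across the dKO livers. The groups overlapped fully and it was not called (log2 change -0.14, 95% interval -0.40 to 0.12, limma adjusted p = 0.4). Fasl, its ligand on cytotoxic lymphocytes, was near or under the floor, at 0, 2.05, 0 and 0 across the controls against 0, 4.62, 5.11 and 0.931 across the dKO livers. Tnfrsf10b, by contrast, held 5.13, 8.21, 3.16 and 16 across the controls against 47.3, 49.9, 54.5 and 49.3 across the dKO livers. It rose from a low level in all 4 dKO livers, which lay close together (change of 2.78 log2 units, SE 0.42, adjusted p by limma = 0.000232). TRAIL, the ligand of this receptor, is encoded by Tnfsf10, at 92.4, 124, 84.1 and 114 across the controls against 138, 133, 141 and 147 across the dKO livers. Its rise was small (change of 0.44 log2 units, SE 0.15, adjusted p by limma = 0.0336). The call ended with quantile normalization (change of 0.21 log2 units, adjusted p = 0.273) and on leaving out control 1, control 3 or any 1 dKO liver, for which the adjusted p was 0.0874, 0.09, 0.0594, 0.0533, 0.0655 and 0.0831 in that order.

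Mice have TRAIL decoy receptors, encoded by Tnfrsf22 and Tnfrsf23, which lie beside Tnfrsf26 on chromosome 7. Tnfrsf23 held 19.5, 9.23, 13.7 and 25.2 across the controls against 34.2, 55.5, 42.6 and 49.3 across the dKO livers and rose without overlap (change of 1.47 log2 units, SE 0.33, adjusted p by limma = 0.00379). Tnfrsf22 stood at 20.9 ± 9.14 (control) and 29.8 ± 5.1 (dKO) and Tnfrsf26 at 13.2 ± 2.03 (control) and 22 ± 8.39 (dKO), and neither was called (limma adjusted p = 0.193 and 0.155). These genes are related in sequence, and whether reads could be shared between them depends on the counting, which is not described in the sources used here. Death receptor 6, encoded by Tnfrsf21, rose in every dKO liver, with 122, 85.2, 134 and 158 across the controls against 324, 389, 411 and 385 across the dKO livers. The 3 dKO livers with the highest values were within 385 to 411 (change of 1.62 log2 units, SE 0.17, adjusted p by limma = 1.1e-05). Tnfrsf25, which encodes death receptor 3, known mainly from T cells, held 11.3, 12.3, 9.47 and 4.57 across the controls against 15.1, 25.9, 26.4 and 40 across the dKO livers. It rose (change of 1.47 log2 units, SE 0.42, adjusted p by limma = 0.0137), but dKO 1 lay close to the controls and the adjusted p was 0.0537 without dKO 4, the highest liver, and 0.083 with quantile normalization. Tnfsf15, its ligand TL1A, known from endothelial cells, had 0 reads in all dKO livers, and 0, 3.08, 2.1 and 3.43 across the controls against 0, 0, 0 and 0 across the dKO livers as normalised read counts. Both groups are at or near the detection floor, so no fold is given (limma adjusted p = 0.0514, and 0.00729 without control 1, which had 0 reads).

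RANK, its ligand and its soluble decoy make up the axis known from bone resorption. Tnfrsf11a, which encodes RANK, held 35.9, 40, 37.9 and 56 across the controls against 123, 132, 105 and 114 across the dKO livers. It rose, and the lowest dKO liver was well above control 4, the highest control (change of 1.48 log2 units, SE 0.19, adjusted p by limma = 5.2e-05). Tnfrsf11b, which encodes the decoy osteoprotegerin, held 35.9, 36.9, 65.2 and 109 across the controls against 67.4, 119, 90.3 and 82.9 across the dKO livers. Here control 4 lay above 3 of the 4 dKO livers, and the member was not called (change of 0.66 log2 units, SE 0.32, adjusted p by limma = 0.13). Without control 4 the log2 change was 0.98 (adjusted p = 0.0154). Tnfsf11, which encodes RANK ligand, was at or near the floor at 0.829 ± 1.09 (control) and 2.53 ± 0.833 (dKO) (limma adjusted p = 0.105, and 0.031 without control 4). The summed level of 8 stellate cell and fibroblast markers, cells known to express osteoprotegerin, was 3897 to 11434 in controls and 19157 to 25149 in dKO livers, with control 4 the highest control. Of these markers 5 rose and 0 fell. Most of the dKO sums came from Col3a1 (mean 1964 in controls and 11586 in dKO livers) and Col1a1 (679 and 6057). Lrat (232 and 247), Reln (803 and 954) and Acta2 (223 and 367) were called neither way. The part of stellate cells and fibroblasts in the values of Tnfrsf11b was not tested.

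The costimulatory receptors are known mainly from T cells, and their changes differed between members. Tnfrsf9, which encodes 4-1BB, held 0, 0, 1.05 and 1.14 across the controls against 23.1, 55.5, 29 and 40 across the dKO livers. The controls were under the floor and every dKO liver was above it, and the fitted change was larger than for any other tested member (change of 5.31 log2 units, SE 0.57, adjusted p by limma = 1.5e-05). Of its reads, 160 came from dKO livers and 2 from controls, which after scaling is a 69.8-fold difference (95% interval 19 to 581, counting error only). The 4-1BB ligand gene Tnfsf9 held 1.03, 0, 0 and 0 across the controls against 3.02, 12.9, 8.52 and 8.38 across the dKO livers and also rose (change of 3.57 log2 units, SE 0.65, adjusted p by limma = 0.000869). Of these reads, 36 came from dKO livers and 1 from controls, which after scaling is a 31.4-fold difference (95% interval 5.29 to 1275, counting error only). Tnfsf9 overlaps a noncoding gene on the other strand over 14.9% of its exonic bases, and without a known strand setting their reads cannot be told apart.

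CD40, a receptor of B cells, macrophages and dendritic cells, is encoded by Cd40, which held 15.4, 9.23, 6.31 and 13.7 across the controls against 28.2, 27.7, 25.5 and 26.1 across the dKO livers. The dKO values were close together and above all controls (change of 1.31 log2 units, SE 0.35, adjusted p by limma = 0.00954), and the adjusted p was 0.0582 with quantile normalization. Cd40lg, its ligand on helper T cells, was at the floor, with 2 reads or fewer in 7 of the 8 livers. Of 7 dendritic cell markers 5 rose and 0 fell, with sums of 215 to 295 in controls and 482 to 649.8 in dKO livers. The largest gain in value was that of Itgax, from a mean of 26.5 in controls to 224 in dKO livers. Zbtb46 (146 and 140) and Xcr1 (16.7 and 12.6) were called neither way. The part of dendritic cells in the level of Cd40 was not tested. Tnfrsf4, the receptor OX40, stood at 10.3 ± 2.24 (control) and 11.4 ± 5.5 (dKO) (95% interval -0.93 to 0.99 for the log2 change), and Cd27 at 7.95 ± 4.95 (control) and 11.1 ± 5.87 (dKO), neither of them called (limma adjusted p = 0.966 and 0.541). Tnfrsf18, which encodes GITR, a receptor of regulatory T cells, held 23.6, 24.6, 24.2 and 24 across the controls against 21.1, 21.3, 13.6 and 15.8 across the dKO livers. All dKO values were lower, yet it was not called (limma adjusted p = 0.252, and 0.0267 with quantile normalization). Tnfrsf18 shares 27.2% of its exonic bases with Gm16008, an antisense gene, and with the strand setting unknown their reads cannot be told apart. Tnfsf18 (GITR ligand), Tnfsf8 (CD30 ligand) and Tnfrsf8 (CD30) had group means of 0.256 to 2.76, and none was called. Of 12 T and NK cell markers 2 rose and 0 fell, with sums of 63.1 to 91.3 in controls and 113 to 146 in dKO livers, and the part of these cells in the levels of Tnfrsf9 and Tnfrsf25 was not tested.

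BAFF and APRIL sustain B cells and plasma cells. Tnfsf13b, which encodes BAFF and is made by myeloid cells, held 2.05, 1.03, 1.05 and 13.7 across the controls against 18.1, 24, 6.81 and 11.2 across the dKO livers. Control 4 lay above 2 of the 4 dKO livers, and controls 1 to 3 were under the floor. The member was called (change of 2.21 log2 units, SE 0.72, adjusted p by limma = 0.0278), with a log2 change of 2.95 without control 4 (adjusted p = 0.00185). The call ended with quantile normalization (0.0544), edgeR (0.0713) and DESeq2 (0.06), and on leaving out control 1, 2 or 3 or dKO 1, 2 or 4, with adjusted p of 0.0657, 0.081, 0.0764, 0.0864, 0.0893 and 0.0521 for the 6 livers in that order. Tnfsf13, which encodes APRIL, stood at 9.7 ± 4.94 (control) and 16 ± 3.88 (dKO) and was not called (limma adjusted p = 0.169). It shares 983 of its 1637 exonic bases with Tnfsfm13 and 221 with Tnfsf13os, on the other strand, so its value is uncertain. Tnfsf13os stood at 8.98 ± 5.55 (control) and 10.2 ± 3.19 (dKO) (limma adjusted p = 0.644).

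Among the receptors for these ligands, Tnfrsf13b and Tnfrsf13c went different ways in value. Tnfrsf13b, which encodes TACI, a receptor of B cells and also reported on macrophages, held 6.16, 3.08, 2.1 and 9.15 across the controls against 31.2, 33.3, 36.6 and 49.3 across the dKO livers. Every dKO liver had at least 3 times the level of the highest control (change of 2.92 log2 units, SE 0.44, adjusted p by limma = 0.000225). Tnfrsf13c, which encodes the BAFF receptor of mature B cells, was at or under the floor in 7 of 8 livers, at 2.4 ± 2.17 (control) and 0.426 ± 0.852 (dKO) (limma adjusted p = 0.179, and 0.045 without control 2). Of 8 B and plasma cell markers 1 rose and 3 fell, and their sum ranged over 156 to 274 in controls and 168 to 233 in dKO livers. Those that fell include the B cell genes Cd79a (change of -1.77 log2 units, adjusted p by limma = 0.00989) and Ms4a1 (change of -1.62 log2 units, adjusted p by limma = 0.048), and the one that rose was Jchain, the joining chain of secreted immunoglobulin (change of 1.18 log2 units, adjusted p by limma = 0.0131); these 3 were named after their values were seen.

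The remaining receptors are not part of the axes above. Relt, a receptor expressed in lymphoid tissues, held 15.4, 3.08, 9.47 and 16 across the controls against 60.3, 61, 58.8 and 75.4 across the dKO livers. It rose in all dKO livers, of which dKO 4 was the highest (change of 2.70 log2 units, SE 0.44, adjusted p by limma = 0.000359). Ngfr, the p75 neurotrophin receptor, known in liver from stellate cells, stood at 72 ± 20.9 (control) and 63.4 ± 22.8 (dKO) and Tnfrsf19, the receptor TROY, at 98.9 ± 19.8 (control) and 74.9 ± 22.5 (dKO). Neither was called (limma adjusted p = 0.581 and 0.168, the latter 0.029 and lower in dKO with quantile normalization). Eda2r, a receptor for 1 form of ectodysplasin A, stood at 10.5 ± 6.75 (control) and 6.59 ± 2.44 (dKO) (limma adjusted p = 0.54). Eda, the ligand gene, which the symbol rule does not take in, rose from 52.3 ± 6.06 to 151 ± 14.5 (change of 1.52 log2 units, SE 0.15, adjusted p by limma = 9.2e-06).

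Members were compared with each other only per length, as normalised reads per kb of annotated exon. Receptors led in control livers, with Ltbr at 874, Tnfrsf1a at 719, Tnfrsf1b at 242, Fas at 153 and Tnfrsf12a at 76.1 reads per kb. In dKO livers Tnfrsf12a reached 459, behind Ltbr and Tnfrsf1a and above Tnfrsf1b at 393. The ligand with the highest level was Tnfsf12, at 42.8 in controls and 75.6 in dKO livers, followed in controls by Tnfsf10 (19.7) and Ltb (11.5). Tnf was at 4.1 and 17.2 reads per kb. Ltb passed Tnfsf10 in dKO livers, at 55.1 against 26.5.

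**Figure D4:**
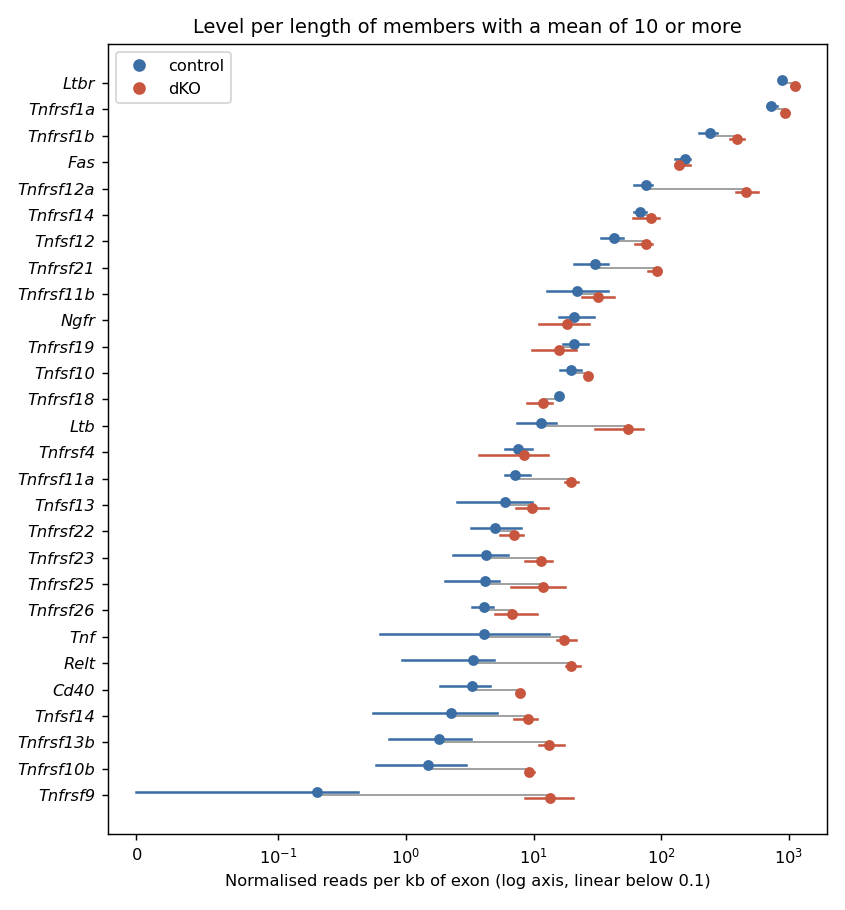
Level of the 28 members with a mean of 10 or more, as normalised reads per kb of exon (log axis, linear below 0.1), in control (blue) and dKO (red) livers; points are means of 4 livers, coloured bars run from the lowest to the highest liver, and a grey line joins the means. Ltbr, Tnfrsf1a and Tnfrsf1b lead in controls, while Tnfrsf12a moves from 76.1 to 459 reads per kb.

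Presence of the heptamer was set beside the calls. It stood in 11 of the 20 members that rose (55%) and in 10 of the 21 with a 3' UTR that were called neither way (47.6%). Ltbr, Tnfsf10, Tnfsf13b, Tnfsf14 and Cd40 also hold it among those that rose. Tnfrsf9, Tnfrsf13b, Ltb, Tnfrsf21, Tnfrsf23, Tnfrsf25, Tnfsf12, Tnfrsf1a and Tnfrsf1b rose with no match to these letters in their annotated 3' UTRs. Of those called neither way, Lta, Fasl, Tnfsf8, Tnfsf11, Tnfsf18 and Cd40lg hold the heptamer but had no more than 12 reads each in the 4 dKO livers together. Ngfr, Tnfrsf11b, Tnfrsf22 and Eda2r hold it too and were called neither way, with 279, 391, 130 and 29 reads in the dKO livers together.

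Genes through which the receptors signal were then counted in lists. Of 83 genes in 8 lists 38 rose, 9 fell and 36 did neither, beside 21.2% and 17% of all tested genes. Subunits of NF-kB and its regulators moved 1 way: of 14 genes 10 rose, 0 fell and 4 did neither, with a median log2 change of 1.11. Tnfaip3, which encodes the ubiquitin-editing inhibitor A20, rose from 83.5 ± 22.5 to 478 ± 95 (change of 2.53 log2 units, SE 0.21, adjusted p by limma = 1.8e-06). Its partner Tnip1 rose from 151 ± 27.6 to 445 ± 93.5 (change of 1.55 log2 units, adjusted p by limma = 1.8e-05). Nfkb2, the precursor of the noncanonical subunit p52, rose from 186 ± 49 to 491 ± 99.7 (change of 1.41 log2 units, adjusted p by limma = 6.5e-05) and Nfkbiz, which encodes a nuclear protein of the IkB family, from 228 ± 27.8 to 484 ± 95.5. All 14 genes of the list had a change above 0.

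Among 17 kinases and ubiquitin enzymes between receptors and NF-kB 3 rose, 6 fell and 8 did neither. Over all tested genes 21.2% were higher and 17% lower. The share of the list that rose is near that of all genes, while the share that fell is above it. The list had a median log2 change of -0.09. Map3k14, which encodes NIK, the kinase of the noncanonical pathway used by LTBR, FN14 and BAFF receptor, rose from 90.5 ± 14.2 to 221 ± 42.5 (change of 1.27 log2 units, SE 0.17, adjusted p by limma = 7.3e-05), and the ubiquitin ligase gene Birc3 (cIAP2) from 282 ± 25.6 to 457 ± 63.4. Chuk, which encodes the kinase IKK alpha, fell from 3025 ± 221 to 1918 ± 116 (change of -0.66 log2 units, SE 0.08, adjusted p by limma = 2.6e-05), and Tab2, an adaptor of the kinase TAK1, from 1612 ± 122 to 1018 ± 123 (change of -0.67 log2 units, adjusted p by limma = 0.000152). Among 11 TRAF adaptors and related genes 3 rose, 1 fell and 7 did neither, a share of rises near that of all genes. Traf6 fell from 454 ± 10.4 to 348 ± 49.8 (change of -0.39 log2 units, adjusted p by limma = 0.0116), while Traf4 rose from 902 ± 80.4 to 1104 ± 86, Traf3 from 303 ± 58.4 to 412 ± 55.5 and Traf1 from 11.6 ± 8.59 to 30.1 ± 13.8, each with overlap. The call of Traf1 was also lost with a pseudocount of 0.1, no filter, quantile normalization and edgeR (0.0581, 0.052, 0.133 and 0.0525). All 3 rises were lost when single livers were left out, with adjusted p up to 0.0528 for Traf4 (without control 3, and 0.0519 without dKO 1), 0.0741 for Traf3 (without control 3, and also lost without control 4 or dKO 2, 3 or 4, at 0.0632, 0.0629, 0.0706 and 0.0662) and 0.141 for Traf1 (without dKO 4, and also lost without control 1 or 3 or dKO 2 or 3, at 0.14, 0.124, 0.128 and 0.0828).

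**Figure D5:**
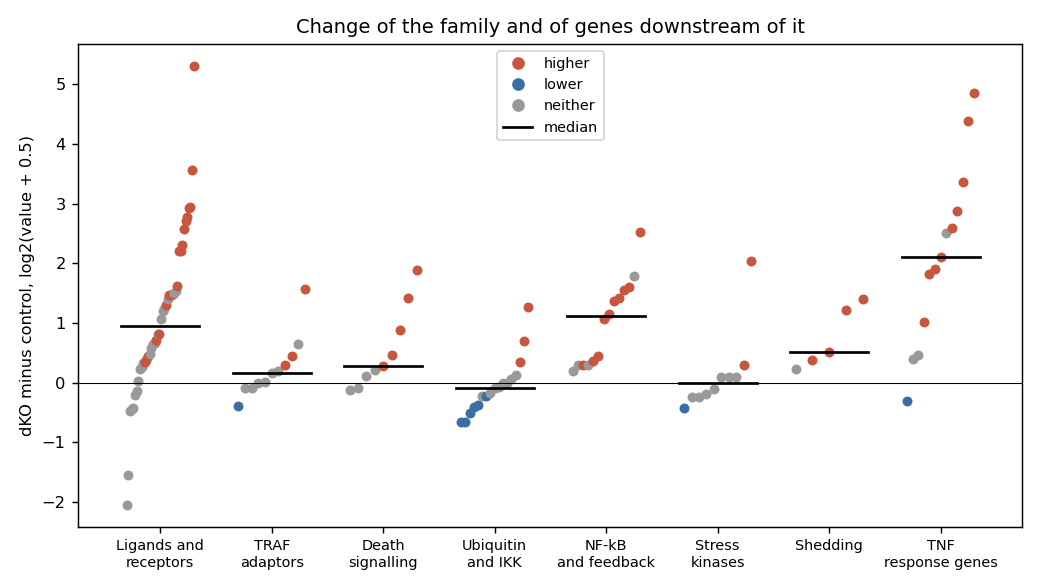
Log2 change of the 42 tested ligands and receptors and of 79 genes in 7 lists of signalling, shedding and response genes (points; red, higher, blue, lower, grey, neither at adjusted p under 0.05; black bars, medians). The medians are 0.95 for the family, 1.11 for NF-kB and feedback genes, 2.10 for response genes and -0.09 for ubiquitin and IKK genes.

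In the death signalling list 5 of 9 genes rose, 0 fell and 4 did neither, with a median of 0.28. Mlkl, which encodes the pore-forming effector of necroptosis, rose from 58.8 ± 7.15 to 219 ± 17.8 (change of 1.89 log2 units, SE 0.14, adjusted p by limma = 8.1e-07) and Zbp1, a nucleic acid sensor upstream of RIPK3, from 128 ± 10.5 to 347 ± 37.7 (change of 1.43 log2 units, adjusted p by limma = 1.6e-06). Ripk3, the necroptosis kinase, rose from 37.6 ± 11.4 to 69.4 ± 20.5 (change of 0.88 log2 units, adjusted p by limma = 0.0201), a call that ended with quantile normalization (0.152) and without control 2 (0.0611), control 3 (0.0565) or dKO 4 (0.0734). Among 10 stress kinase genes 2 rose, 1 fell and 7 did neither, which is near the 21.2% and 17% of all tested genes. Jun rose from 309.8 ± 47.5 to 1288 ± 260.04 (change of 2.05 log2 units, adjusted p by limma = 7.3e-07), Map2k3 rose from 1308 ± 68.1 to 1609.9 ± 96.6 and Map2k7, a kinase of the JNK branch, fell from 1075 ± 81.2 to 797 ± 28.9 (change of -0.43 log2 units, adjusted p by limma = 0.000769).

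Shedding sets how much ligand and receptor leaves the cell surface. Of 5 genes of the ADAM sheddases and their regulators 4 rose and 1 did neither, with a median of 0.52. Over all tested genes 21.2% were higher and 17% lower. Rhbdf1, which encodes the ADAM17 regulator iRhom1, rose from 187 ± 26.9 to 494 ± 22.9 (change of 1.41 log2 units, SE 0.11, adjusted p by limma = 1.4e-06), and Timp3, an inhibitor of ADAM17, from 282 ± 77.2 to 647 ± 82.8 (change of 1.22 log2 units, adjusted p by limma = 7.0e-05), so that genes with opposite known effects on shedding both rose. Adam10 rose from 650.5 ± 71.1 to 845 ± 80.7 and Rhbdf2 from 345 ± 38.6 to 501 ± 107. Of 13 genes known to respond to TNF 9 rose, 1 fell and 3 did neither, with a median log2 change of 2.10. Without control 4, 11 of them rose and 1 fell, beside 21.1% and 16.4% of all tested genes. The endothelial adhesion genes Vcam1 and Icam1 rose from 281 ± 11.9 to 1218 ± 205 (change of 2.10 log2 units, SE 0.11, adjusted p by limma = 5.1e-08) and from 197 ± 34.8 to 742 ± 119.6 (change of 1.91 log2 units, adjusted p by limma = 8.6e-07). Ier3 rose from 28.9 ± 17 to 202 ± 66.2 and the monocyte chemokine gene Ccl2 from 15.2 ± 18.4 to 285 ± 98.4 (log2 change 4.85, 4.23 without control 3 and 5.58 without control 4). Of 7 endothelial markers 3 rose and 1 fell, beside the 21.2% and 17% of all tested genes. Their sums were 4343 to 5285 in controls and 5463 to 7477 in dKO livers. The part of endothelial cells in the adhesion genes was not tested.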

How the data were processed

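Liver RNA of 8 mice was sequenced, 4 per group. HISAT2 2.0.5, DESeq2, fastp, featureCounts 1.5.0-p3 and the build mm10 are named in the submitters' processing notes, without roles; annotation and strand setting: not given in the sources used here. Although the deposited file is named for FPKM, in each library all values are whole multiples of 1 step (100% within 0.001), so the deposited signal is read counts that were divided by 1 size factor per library. The design had allowed for FPKM and the same log-scale test was kept. Dividing by the step gave reads back.

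Identifiers matched a symbol for 21796 of 22052 genes. Genes with a mean of 0.5 or more (20055) were tested as log2(value + 0.5) with limma 3.58.1 in R 4.3.3 (eBayes with trend, 2-sided, group as the one term, Benjamini-Hochberg over all tested genes). As alternatives, edgeR 4.0.16 and DESeq2 1.42.0 were run on the recovered reads, beside other pseudocounts, filters, scalings and fits without 1 liver, 17 settings in all. The fit was tested on simulated data. Values in every liver were given for members called with a group mean of 10 or more and for 14 members chosen by name; Tnfsf9, Tnfsf15 and Tnfrsf18 were added after their values were seen. Of each pathway list up to 4 called genes with the smallest adjusted p were named, except 1 that is not reported here. Positions, exon lengths and 3' UTRs are from GENCODE M21. Members and lists were chosen with earlier results of these data known. The labels number the mice as separate animals.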

Additional observations from a re-analysis of the deposited data

Results flagged for a closer look

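137 sets of 4 livers were checked for a liver that lies apart from the other 3 of its group, by Dixon's ratio with its 95% critical value of 0.829, which chance alone exceeds in about 5% of sets. In 7 of them 1 liver lay apart, a share near that rate. Among members, Tnf in control 4 was at 21.7 normalised read counts (19 reads), against at most 3.08 in the other controls. Tnfsf13b in control 4 was at 13.7 (12 reads), against at most 2.05. Relt in dKO 4 was at 75.4, above the next dKO liver at 61, and Fas in dKO 4 at 345, above the next at 273. Of the targeted genes, Zfp36l1 in dKO 4 was at 267, the highest of its group, and Zfp36l2 in control 3 at 997, the lowest of its group. Jun in control 3 was at 239, below the next control at 328.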

How the results depend on the processing

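The count of members higher in dKO livers was 20 and ranged from 16 with quantile normalization to 20 in the settings that left out no liver, and from 17 (without dKO 4) to 22 (without control 4) when single livers were left out. The count of members lower, 0, was 1 with no filter on low values, 3 with quantile normalization and 1 with edgeR, and 0 to 1 when single livers were left out (1 without control 1 or control 2); the cause was not tested. The member lower without a filter and with edgeR was Tnfsf15, and quantile normalization called Tnfsf15, Tnfrsf18 and Tnfrsf19. Quantile normalization moved the median log2 change of all tested genes from 0.03 to -0.08, and the members' median to 0.71. It also turned the balance of all genes, to 3638 higher and 4312 lower from 4244 and 3410. Of the 20 calls, 16 held in every setting that tested them; the other 4 were Tnfsf10, Tnfsf13b, Tnfrsf25 and Cd40. Pathway genes stayed at 33 to 40 higher and 8 to 11 lower. DESeq2 gave an adjusted p for 37 of the members, and the filter at a mean of 10 tested 28. With the mouse number as a replicate block 19 members were higher and 0 lower, Tnfsf10 being the call lost (adjusted p = 0.053), and 4021 genes in all were higher and 3112 lower. Same-numbered livers correlated at -0.07 to 0.08 in their deviations, and not every liver correlated best with its own number. The share of members with a 3' UTR match was 51.2% with the longest 3' UTR, as for TATTTAT in all of them, 14.6% for the nonamer and 75.6% for the pentamer ATTTA, beside 8.25% and 69.1% of all tested genes, since those motifs are longer and shorter. Low reads limit 16 members, which had under 3 reads in at least 1 liver.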

Other observations

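Several members lie next to each other in the genome (GENCODE M21, GRCm38). Chromosome 4 holds 9 members and chromosome 17 holds 7. On chromosome 17, Ltb (35194439 to 35196320), Tnf (35199381 to 35202007) and Lta (35203165 to 35205351) follow each other. Ltb and Tnf rose and Lta had under 3 reads in every liver. The other 4 members on that chromosome, Tnfrsf12a, Tnfrsf21, Tnfsf9 and Tnfsf14, also rose. On chromosome 4 the members Tnfrsf1b, Tnfrsf9 and Tnfrsf25 rose, and Tnfrsf8, Tnfrsf14, Tnfrsf4, Tnfrsf18, Tnfsf8 and Tnfsf15 were called neither way. Tnfrsf1b (145213463 to 145246870) and Tnfrsf8 (145267137 to 145315164) are neighbours with levels of 242 and 0.231 reads per kb in controls. On all chromosomes together 20 of the 42 tested members rose, beside 21.2% of all tested genes. These chromosomes were picked after the calls were seen, and no test of position was made.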
